A study of Mus musculus with 6 samples.

Results

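The 10 genes described here encode the IL-1 and IL-18 cytokines, the proteins that hold them in check, and the core of the inflammasome: Il1a, Il1b, Il1rn, Il18, Il18bp, Nlrp3, Pycard, Casp1, Casp4 and Gsdmd. They were taken by name from the 54532 genes listed in each library, and all 10 were found by their GENCODE M21 symbols. RNA-seq was used to compare control iBMDMs with PGAM5 KD iBMDMs after LPS, to ask how PGAM5, a mitochondrial phosphatase, affects gene expression in activated macrophages. iBMDMs are bone marrow-derived macrophages of wild-type mice that were immortalized with retroviruses carrying v-raf and v-myc and grow as a cell line. Control cells were infected with a lentivirus for a control shRNA and PGAM5 KD cells with one for an shRNA against Pgam5, and both were treated with LPS at 100 ng/ml for 4 hours, with 3 libraries in each group. No untreated library was analysed here, so the values are levels after LPS and not inductions by it. Each group carried its own shRNA, so loss of PGAM5 cannot be told apart from other differences between the infected cells or from effects of the shRNA on other genes.

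IL-1α and IL-1β are cytokines that bind the same receptor and drive fever and inflammation, and the IL-1 receptor antagonist (Il1rn) occupies that receptor without signalling. IL-1β and IL-18 are made as inactive precursors. A sensor such as NLRP3 joins through the adaptor ASC (Pycard) to caspase-1, which cleaves both precursors, and caspase-1 or caspase-11 (Casp4) cleaves gasdermin D, whose fragment forms pores in the plasma membrane. In macrophages LPS is known to raise the mRNA of several of these genes before any inflammasome forms, so mRNA levels measure the supply of components and not cleavage or release.

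The depth recovered from the values ranged from 18163464 to 24388917 fragments per library. Pgam5, the targeted gene, was between 13.0 and 17.1 FPKM (fragments per kilobase of exon, scaled to depth) in control and between 4.33 and 5.75 FPKM in PGAM5 KD libraries, a log2 fold change of -1.40 with a standard error (SE) of 0.13 and an adjusted p of 0.000358 in limma. Of 8 macrophage markers 7 were above 0 in every library and Mertk was at 0 in all 6, and their summed level was 2802 to 2894 FPKM in control and 2526 to 2544 FPKM in PGAM5 KD libraries. Of these 7 markers 4 were higher and 3 lower at an adjusted p under 0.05 in limma, which 31.7% of all genes tested passed, and their part in the results was not tested. The 9 neutrophil markers summed to at most 0.568 FPKM in any library and 6 of them, among them S100a9 and Ly6g, were at 0 in all (the markers at 0 were named after their values were seen). The markers of fibroblasts, lymphocytes and dendritic cells summed to at most 0.0168, 0.211 and 0.613 FPKM.

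The sequences just before the start sites are shown for 4 genes, because Il1a and Il1b rose most, Il1rn fell, and Casp4 held the only repeated match. They come from RefSeq promoters of GRCm38.p6, which were found for 9 of the 10 genes with 13 start sites among them. The 4 printed windows end before the gene begins in the annotation, so that they hold no base of its transcripts. All are written 5′ to 3′ on the strand of the gene. Capitals mark the motifs found: TATAAA (the TATA box) and TGANTCA (AP-1) in the first 3, and matches to the kappaB consensus of NF-κB in Casp4. Il1a lies at chr2:129309973-129310222 and Il1b at chr2:129371140-129371389, both on the minus strand. Il1rn lies at chr2:24336610-24336852 and Casp4 at chr9:5308599-5308827, both on the plus strand.
Il1a: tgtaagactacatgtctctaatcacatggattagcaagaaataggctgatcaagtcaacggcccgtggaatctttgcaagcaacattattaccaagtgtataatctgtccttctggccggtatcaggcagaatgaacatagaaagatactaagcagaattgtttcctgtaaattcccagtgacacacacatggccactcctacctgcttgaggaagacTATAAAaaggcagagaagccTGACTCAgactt
Il1b: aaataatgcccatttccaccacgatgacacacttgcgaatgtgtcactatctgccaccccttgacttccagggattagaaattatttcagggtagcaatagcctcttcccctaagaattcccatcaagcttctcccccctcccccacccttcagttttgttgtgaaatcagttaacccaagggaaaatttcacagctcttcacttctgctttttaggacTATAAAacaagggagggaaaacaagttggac
Il1rn: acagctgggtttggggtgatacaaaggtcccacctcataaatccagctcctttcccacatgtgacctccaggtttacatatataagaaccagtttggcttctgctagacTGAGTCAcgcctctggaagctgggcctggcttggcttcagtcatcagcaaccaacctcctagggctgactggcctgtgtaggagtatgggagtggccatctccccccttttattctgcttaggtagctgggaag
Casp4: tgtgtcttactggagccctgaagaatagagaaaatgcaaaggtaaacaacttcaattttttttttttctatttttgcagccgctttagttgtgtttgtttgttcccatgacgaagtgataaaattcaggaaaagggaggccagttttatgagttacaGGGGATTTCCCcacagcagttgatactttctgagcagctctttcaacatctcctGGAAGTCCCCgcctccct

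Distances are counted back from the RefSeq start, for Il1rn and Casp4 the first of their listed starts, which lies inside the annotated gene. The 2 later starts of Il1rn, with windows from chr2:24345041 and chr2:24345121, had no match in them. Values per gene do not show which start was used. The later start of Casp4 had the same matches 11 bases farther away. The TATA boxes stood 32 to 27 bases before the start of Il1a and 31 to 26 bases before that of Il1b. Il18 had a match on the other strand, 175 to 170 bases before its start. A TATA box occurs in 12.4% of all 32851 RefSeq promoters in a window of the same 250 bases, searched on both strands. An AP-1 match stood 12 to 6 bases before the start of Il1a and another 141 to 135 bases before that of Il1rn, and 6.75% of promoters hold one. In Casp4, 2 overlapping kappaB matches covered the bases from 93 to 83 before the start and another lay from 39 to 30, and 7.25% of promoters hold at least 1. Nlrp3 also had a kappaB match, from 186 to 177 bases before 1 of its start sites. Of the other motifs searched, TTGCNNAA (C/EBP) matched in Il18bp and Pycard, while TGACGTCA (CRE) and the interferon-stimulated response element (ISRE) matched in none of the 13 windows. Of all promoters 9.56% hold a C/EBP, 1.55% a CRE and 2.98% an ISRE match. A match is a run of letters only and does not show that a factor was bound.

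Both IL-1 agonists rose sharply in PGAM5 KD cells, while their antagonist fell. Il1b increased 4.94-fold and Il1a 9.21-fold in mean FPKM, and Il1rn fell to 0.773 of its control level. The genes were tested with limma on log2(FPKM + 1) among the 10540 genes with a mean of at least 1 FPKM, a gene was called at an adjusted p under 0.05, and the added 1 FPKM makes differences of low genes look smaller than they are.

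Il1b (chr2:129364570-129371139, minus strand, GRCm38) encodes IL-1β. In control cells its level was 6.24, 6.73 and 6.55 FPKM, and in PGAM5 KD cells 33.8, 32.6 and 30.1 FPKM. The groups were far apart, and the libraries within each group differed little. These levels rested on 216 to 259 fragments per control library and 1128 to 1415 per PGAM5 KD library. The log2 fold change of Il1b was 2.14 (SE 0.056, 95% confidence interval 2.01 to 2.27, adjusted p = 7.42e-06 in limma). By level, Il1b stood above 40.6% of the genes tested in control and above 83.1% in PGAM5 KD cells. Its antisense gene Il1bos shares 25 exon bases with it and was at most 0.229 FPKM.

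Il1a (chr2:129299610-129309972, minus strand) encodes IL-1α, which is active without cleavage by caspase-1. It was 0.586, 1.05 and 0.727 FPKM in control and 8.30, 6.94 and 6.56 FPKM in PGAM5 KD libraries. Every PGAM5 KD library was several times above every control library. The control values rested on 21, 42 and 28 fragments and the PGAM5 KD values on 360, 249 and 316 fragments. On the log2(FPKM + 1) scale Il1a differed by 2.21 (SE 0.13, 95% confidence interval 1.91 to 2.51, adjusted p = 5.48e-05 in limma), and voom on the recovered fragments, which adds no 1 FPKM, gave a log2 fold change of 3.20. Il1a passed the filter on low values through its PGAM5 KD libraries alone, and without that filter its adjusted p in limma was 0.000682. Gm14023 on the other strand shares 222 exon bases with it and had at most 12 fragments in any library. Il1a stood above 0.712% of the genes tested in control and above 44.2% in PGAM5 KD cells. Its control mean of 0.789 FPKM was under the filter of 1 FPKM, so the control share was bound to be low. RNA was taken from whole cultures, so more Il1a mRNA in each cell and more cells that make it cannot be told apart, and the same holds for each gene described here.

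Ranked by log2 fold change among the 10540 genes tested, Il1a was number 5 and Il1b number 7 from the top. The 2 genes lie 54.6 kb apart on chromosome 2. Of 19 genes listed from 150 kb before to 150 kb after the pair, 5 were tested, and the 3 others were named after their values were seen. The phosphate transporter Slc20a1 rose by 0.18 (SE 0.053, adjusted p = 0.0405 in limma) and the mitotic gene Ckap2l by 0.22 (SE 0.067, adjusted p = 0.0449 in limma) on the log2 scale, both far less than Il1a or Il1b. Gm4430 was between 0.595 and 1.71 FPKM in control and between 0.913 and 1.20 FPKM in PGAM5 KD libraries and was not called (log2 fold change -0.098, adjusted p = 0.751 in limma).

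Il1rn (chr2:24336853-24351494, plus strand) moved in the opposite direction. It was 35.0, 37.3 and 35.4 FPKM in control and 27.8, 27.1 and 28.3 FPKM in PGAM5 KD libraries. The ranges did not overlap, and each library held between 2729 and 4166 fragments of it. The log2 fold change was -0.36 (SE 0.040, 95% confidence interval -0.45 to -0.27, adjusted p = 0.000859 in limma).

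**Figure D1:**
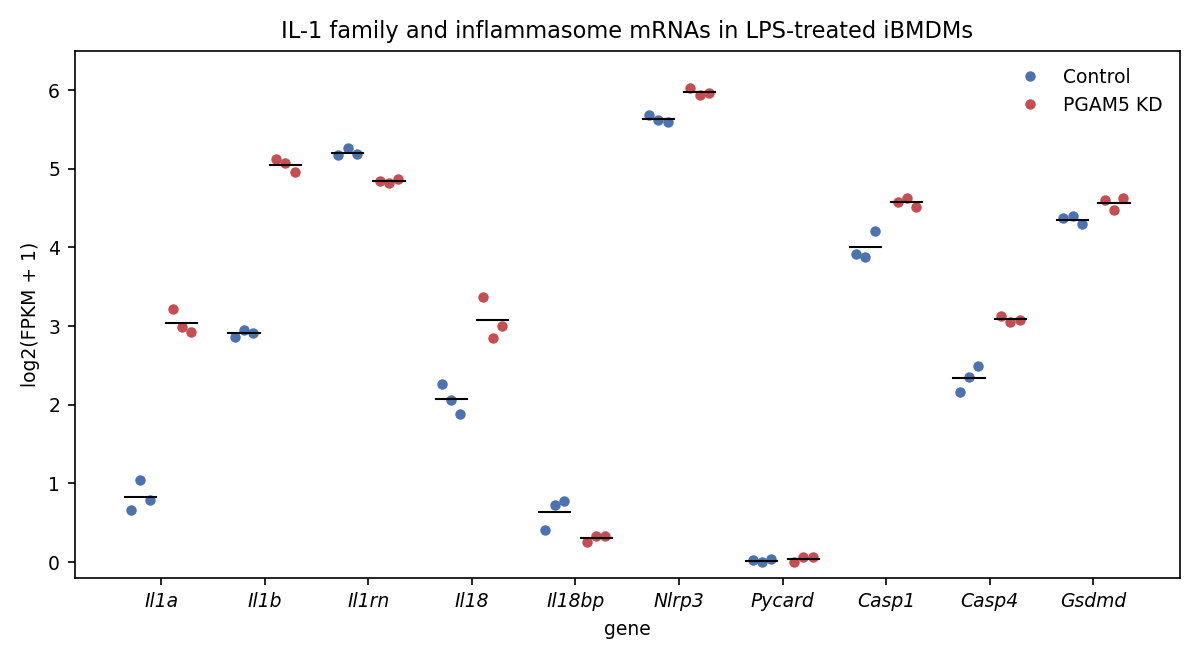
Level of the 10 genes in each library as log2(FPKM + 1), with 3 control (blue) and 3 PGAM5 KD (red) libraries as points and the mean of each group as a black line. The groups are apart for every gene but Pycard, as they are for 47.1% of all genes tested. They are widest apart for Il1a and Il1b, and Il1rn and Il18bp are the genes whose PGAM5 KD libraries lie lower.

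In FPKM, which divides by exon length, the order of agonist and antagonist mRNA turned over. The exons summed to 5535 bases for Il1rn, 1907 for Il1b and 1974 for Il1a. In fragments Il1rn stayed above both, with 3378, 2729 and 3826 in PGAM5 KD libraries against 1415, 1128 and 1401 of Il1b. The crossing thus depends on these lengths, while the fold difference of the Il1b to Il1rn ratio between groups does not. The summed level of Il1a and Il1b was 6.82 to 7.79 FPKM in the control libraries, where Il1rn was at least 35.0 FPKM. In the PGAM5 KD libraries the sum was 36.7 to 42.1 FPKM, above Il1rn in each of the 3. The ratio of Il1b to Il1rn within a library, which no scaling between libraries can change, was 0.178, 0.180 and 0.185 in control and 1.22, 1.20 and 1.06 in PGAM5 KD libraries, a 6.39-fold difference (2.67 ± 0.064 SE in log2, exact two-sided permutation p = 0.1). With 3 libraries against 3, 0.1 is the smallest p that this test can give, and it also was 0.1 after adjustment over the 5 ratios compared.

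The ratio of Il1a to Il1b was 0.0939, 0.157 and 0.111 in control and 0.246, 0.213 and 0.218 in PGAM5 KD libraries. Il1a thus gained on Il1b in every PGAM5 KD library, by 1.91-fold (exact permutation p = 0.1), a ratio that rests on the 91 fragments of Il1a summed over the control libraries. With 1 FPKM added to both genes the log2 difference was 0.070 instead of 0.94. Against Il1rn the ratio of Il1a was 12.2-fold higher (exact permutation p = 0.1), and with 1 FPKM added to both genes the log2 difference was 2.57 instead of 3.61.

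Il18 also rose, and its inhibitor Il18bp was too low to be tested. Il18 (chr9:50554827-50581840, plus strand) was 3.79, 3.17 and 2.68 FPKM in control and 9.36, 6.19 and 6.999 FPKM in PGAM5 KD libraries. The groups did not overlap, and the first PGAM5 KD library stood highest. The log2 fold change was 1.01 (SE 0.15, 95% confidence interval 0.64 to 1.37, adjusted p = 0.00335 in limma), and it stayed called in each of the 16 alternatives run. It fell to 0.86 without that PGAM5 KD library and to 0.91 without the third control library, so its place above 1 depends on single libraries.

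The gene body of Il18 overlaps that of Bco2, a carotenoid-cleaving enzyme on the opposite strand, without sharing an annotated exon base. It also overlaps that of Tex12, which was at most 0.151 FPKM in control and at 0 in PGAM5 KD libraries. Bco2 was between 0.943 and 1.47 FPKM in control and between 3.19 and 3.89 FPKM in PGAM5 KD libraries, with a log2 fold change of 1.04 (SE 0.12, adjusted p = 0.00100 in limma). Whether the libraries kept strand is not given in the sources used here, so fragments of the 2 genes may not be told apart where their transcripts overlap, and the part of this in either difference was not tested.

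Il18bp (chr7:102014885-102018690, minus strand) encodes the secreted protein that binds and neutralizes IL-18. It was 0.327, 0.655 and 0.711 FPKM in control and 0.195, 0.255 and 0.257 FPKM in PGAM5 KD libraries, from 18, 40 and 42 against 13, 14 and 19 fragments. The groups did not overlap, but the first control library lay nearer to the PGAM5 KD libraries than to the other controls (exact permutation p = 0.1). Its mean was below the 1 FPKM of the filter, and without the filter it was not called (log2 fold change -0.33, 95% confidence interval -0.60 to -0.064, adjusted p = 0.117 in limma). It shares 80 exon bases with Numa1, a spindle protein gene at 22.9 to 26.0 FPKM on the other strand. The ratio of Il18 to Il18bp was 11.6, 4.84 and 3.77 in control and 47.9, 24.3 and 27.2 in PGAM5 KD libraries, which do not overlap (5.31-fold, exact permutation p = 0.1). With 1 FPKM added to both genes the log2 difference of this ratio was 1.34 instead of 2.41.

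**Figure D2:**
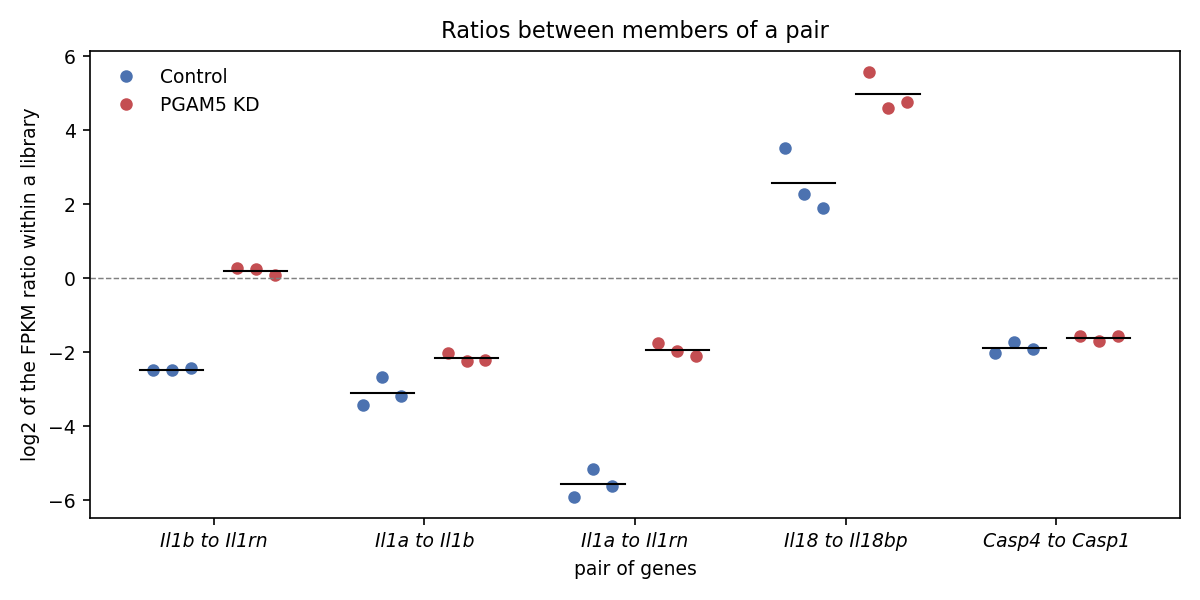
Log2 of the ratio of FPKM between 5 pairs of genes within each library, with 3 control (blue) and 3 PGAM5 KD (red) libraries as points, the mean of each group as a black line and a ratio of 1 as a dashed line. In FPKM, which divides by exon length, the ratio of Il1b to Il1rn crosses 1. It goes from at most 0.185 in control to at least 1.06 in PGAM5 KD libraries. The groups of none of the 5 pairs overlap.

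Of the inflammasome components, Nlrp3, Casp1, Casp4 and Gsdmd rose, and the adaptor was near 0 in both groups. Nlrp3 (chr11:59541568-59566956, plus strand), the sensor, had the highest level of the 10 genes in both groups. It was 50.4, 48.3 and 47.4 FPKM in control and 64.4, 60.4 and 61.5 FPKM in PGAM5 KD libraries, an increase of 1.28-fold without overlap (log2 fold change 0.34, SE 0.040, 95% confidence interval 0.25 to 0.44, adjusted p = 0.00104 in limma).

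Pycard (chr7:127989708-127993867, minus strand) encodes ASC, which links NLRP3 to caspase-1. It had 1, 0 and 2 fragments in the control libraries and 0, 3 and 4 fragments in the PGAM5 KD libraries, or at most 0.0435 FPKM. In 5 of 6 libraries it was at or under the floor of 3 fragments, which amounts to between 0.0324 and 0.0435 FPKM and covers counting error only, and no fold change is given (exact permutation p = 0.4). Gm45205 on the other strand shares 485 of its 3800 exon bases and was at most 0.0308 FPKM, which leaves 3315 exon bases that no other gene covers. How the authors' counting treated fragments that fit several places is not given in the sources used here, so these counts do not show that the mRNA was absent.

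Casp1 and Casp4 lie 1.56 kb apart on chromosome 9 and both rose. Casp1 (chr9:5298517-5307265, plus strand) was 14.0, 13.7 and 17.6 FPKM in control and 22.9, 23.8 and 21.8 FPKM in PGAM5 KD libraries. The third control library was the highest of its group and still below all PGAM5 KD libraries. The log2 fold change of Casp1 was 0.57 (SE 0.092, 95% confidence interval 0.36 to 0.79, adjusted p = 0.00414 in limma).

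Casp4 (chr9:5308828-5336783, plus strand) encodes caspase-11, which binds LPS in the cytosol, and carries the kappaB matches printed above. It was 3.49, 4.13 and 4.64 FPKM in control and 7.75, 7.32 and 7.40 FPKM in PGAM5 KD libraries, a 1.83-fold increase without overlap (log2 fold change 0.75, SE 0.090, 95% confidence interval 0.53 to 0.96, adjusted p = 0.00122 in limma). The ratio of Casp4 to Casp1 was 0.248, 0.302 and 0.264 in control and 0.339, 0.307 and 0.339 in PGAM5 KD libraries, a 1.21-fold difference in which the second libraries of both groups nearly met (exact permutation p = 0.1). With 1 FPKM added to both genes its log2 difference was 0.17 instead of 0.28. Casp12, the next caspase gene of the cluster, was at 0 in all 6 libraries and was named after its values were seen.

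Gsdmd (chr15:75862327-75867408, plus strand) encodes the pore-forming protein that both caspases cleave, and its difference was the smallest of the 8 genes tested. It was 19.7, 20.1 and 18.6 FPKM in control and 23.4, 21.2 and 23.7 FPKM in PGAM5 KD libraries. The second PGAM5 KD library was close to the controls, though the groups did not overlap. The log2 fold change was 0.22 (SE 0.055, 95% confidence interval 0.088 to 0.35, adjusted p = 0.0236 in limma). The call was lost after scaling to TPM (log2 fold change 0.15, adjusted p = 0.103 in limma) and when control replicate 1 or 3 or PGAM5 KD replicate 1 or 3 was left out, with adjusted p from 0.0553 to 0.0763 in limma.

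**Figure D3:**
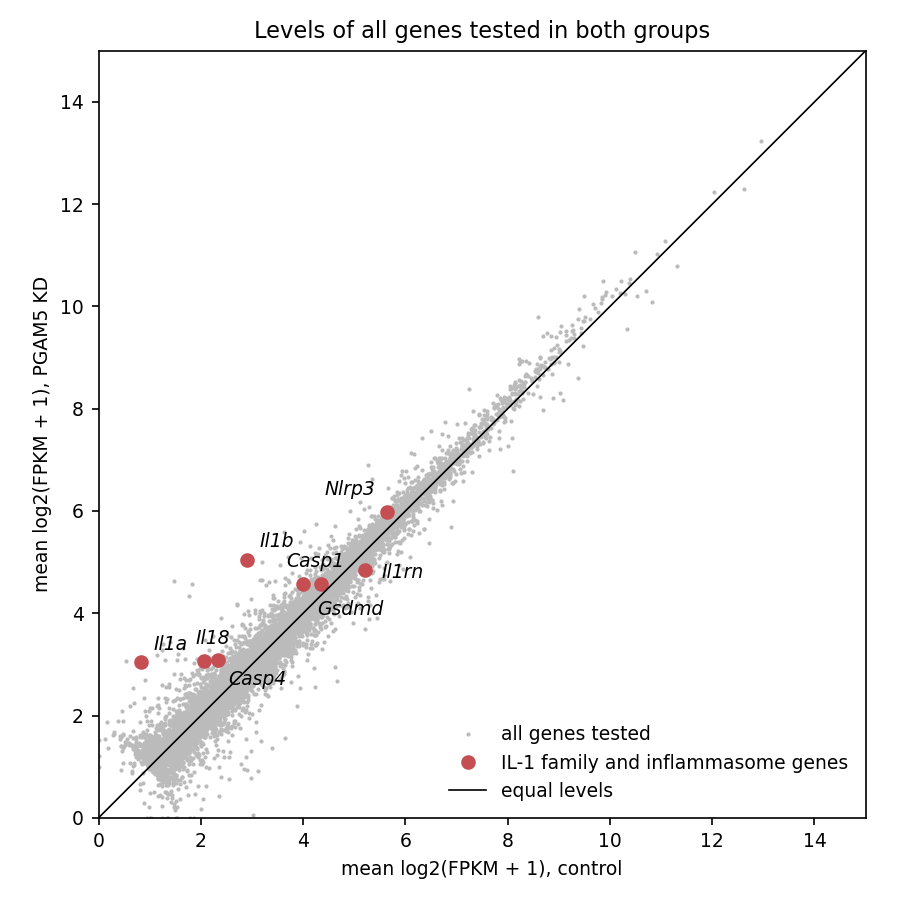
Mean log2(FPKM + 1) of the 10540 genes tested, in control (horizontal) and PGAM5 KD (vertical) libraries, as gray points, with the 8 tested genes of the IL-1 and inflammasome group in red and a line of equal levels. Il1a and Il1b lie far above the line and Il1rn below it.

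Of the 10 genes 8 passed the filter, and of these 7 were called higher and 1 lower, where 31.7% of all genes tested were called, 16.8% higher and 14.9% lower. Without Il1a, which passed through its PGAM5 KD libraries, 6 of 7 were higher. Il1a, Il1b and Il18 were both called and above 1 in absolute log2 fold change, as were 1.32% of all genes tested. The libraries of the 2 groups did not overlap for the 8 tested genes, nor for 47.1% of all genes tested. The median log2 fold change was 0.66 over the 8 genes, 0.57 without Il1a and 0.013 over all genes tested. Of all called genes 52.9% were higher in PGAM5 KD cells, and 32.3% after scaling to TPM, a scaling under which the 8 genes kept their direction.

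The levels changed order with the knockdown, as far as FPKM, which is per length, allows a comparison between genes. In control cells the mean level fell from Nlrp3 over Il1rn, Gsdmd, Casp1 and Il1b to Casp4 and Il18, whose ranges overlapped, then to Il1a and Il18bp, which overlapped as well, and to Pycard. In PGAM5 KD cells Il1b moved up to second place, between Nlrp3 and Il1rn, without overlap with either. Casp1 and Gsdmd then overlapped, and Il18, Casp4 and Il1a overlapped at means of 7.52, 7.49 and 7.27 FPKM.

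Among 64 other genes of the pathway, 35 were tested and 10 of these (28.6%) were called, 7 higher and 3 lower, where 31.7% of all genes were called. After scaling to TPM 15 of the 35 were called, beside 3370 of 10540 genes, and with voom on the recovered fragments 14 of 35, beside 3893 of 10535 genes. Without the filter on low values 6 of 50 were called, beside 2590 of 20816 genes. Without control replicate 1 it was 6 of 35, beside 2532 of 10535 genes, and without control replicate 3 it was 6 of 35, beside 2435 of 10525 genes. The median log2 fold change of the 35 was 0.071, and 14 of the 64 were at 0 in all libraries. Of 6 other IL-1 family ligands only Il36a (listed as Il1f6), an agonist of its own receptor, was tested. It was 0.935, 0.786 and 0.638 FPKM in control and 1.34, 1.43 and 1.25 FPKM in PGAM5 KD libraries (log2 fold change 0.39, SE 0.12, adjusted p = 0.0442 in limma). It passed the filter through the PGAM5 KD libraries, and without the filter its adjusted p was 0.0630 in limma. The call was kept in 4 of 14 alternatives. It was kept in none of the 5 that left out a library and still tested Il36a. These were the fits without control replicate 1, 2 or 3 or PGAM5 KD replicate 1 or 3.

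Of 10 receptors of the family 3 were tested and 1 rose, where 16.8% of all genes tested were higher. Il18rap, the accessory chain of the IL-18 receptor, went from a mean of 4.21 to 5.95 FPKM (log2 fold change 0.42, SE 0.069, adjusted p = 0.00457 in limma). Il18r1, the chain that binds IL-18, had 5 and 6 fragments summed over the control and PGAM5 KD libraries, and Il1r1, the signalling receptor of IL-1, had 5 and 4. The decoy receptor Il1r2 was at 0 in all 6 libraries. These 3 receptors were named after their values were seen, and no difference in them was detectable at this depth.

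Among the signalling genes downstream of the IL-1 receptor, which Toll-like receptors share, Irak3 rose and Irak2 fell. Of 13 such genes 12 were tested and the 10 others were not called, where 31.7% of all genes tested were called. Irak3 encodes IRAK-M, a kinase homolog known to restrain this signalling, and was 9.08, 10.1 and 9.82 FPKM in control and 21.3, 18.2 and 18.9 FPKM in PGAM5 KD libraries. All PGAM5 KD libraries were far above the controls (log2 fold change 0.94, SE 0.069, 95% confidence interval 0.78 to 1.10, adjusted p = 0.000151 in limma). Irak2, a kinase that prolongs it, fell from a mean of 17.6 to 13.9 FPKM (log2 fold change -0.32, SE 0.055, adjusted p = 0.00543 in limma).

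Of 17 other inflammasome sensors and related receptors 7 were tested, and 2 were higher, 1 lower and 4 not called, where 16.8% of all genes tested were higher and 14.9% lower. Naip2, which recognizes a bacterial secretion protein, rose from a mean of 4.58 to 6.53 FPKM (log2 fold change 0.43, SE 0.11, adjusted p = 0.0248 in limma), and whether it shares fragments with its paralogs was not tested. Nlrc5, known as a regulator of MHC class I genes, rose from 2.43 to 3.58 FPKM (log2 fold change 0.42, SE 0.096, adjusted p = 0.0164 in limma). Nlrp10 fell from 2.88 to 2.02 FPKM (log2 fold change -0.37, SE 0.11, adjusted p = 0.0440 in limma). The calls of Naip2, Nlrp10 and Nlrc5 were kept in 10 of 16, 7 of 15 and 13 of 15 alternatives. Without the filter on low values all 3 were lost, with adjusted p of 0.0720, 0.120 and 0.0540 in limma. Quantile normalization ended the call of Nlrp10 (adjusted p = 0.0539 in limma). Leaving out control replicate 1 or 3 or PGAM5 KD replicate 1 ended the calls of Naip2 and Nlrp10, control replicate 2 or PGAM5 KD replicate 2 ended that of Nlrp10, and PGAM5 KD replicate 3 ended those of Naip2 and Nlrc5.

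Of 18 regulators and pore proteins 12 were tested, 2 were higher, 1 lower and 9 not called, where 31.7% of all genes tested were called. Casp8, an initiator caspase of cell death that can also cleave pro-IL-1β, was 10.2, 10.6 and 12.0 FPKM in control and 15.7, 18.2 and 17.0 FPKM in PGAM5 KD libraries. The groups were apart (log2 fold change 0.59, SE 0.076, 95% confidence interval 0.41 to 0.77, adjusted p = 0.00163 in limma). Txnip, a thioredoxin-binding protein described as an NLRP3 partner, rose by 0.21 (SE 0.043, adjusted p = 0.0112 in limma) on the log2 scale and was not called after scaling to TPM (adjusted p = 0.0523 in limma). Ninj1, which ruptures the membrane of dying cells, fell by 0.25 (SE 0.059, adjusted p = 0.0190 in limma), a call that was lost without control replicate 1 or 3.

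**Figure D4:**
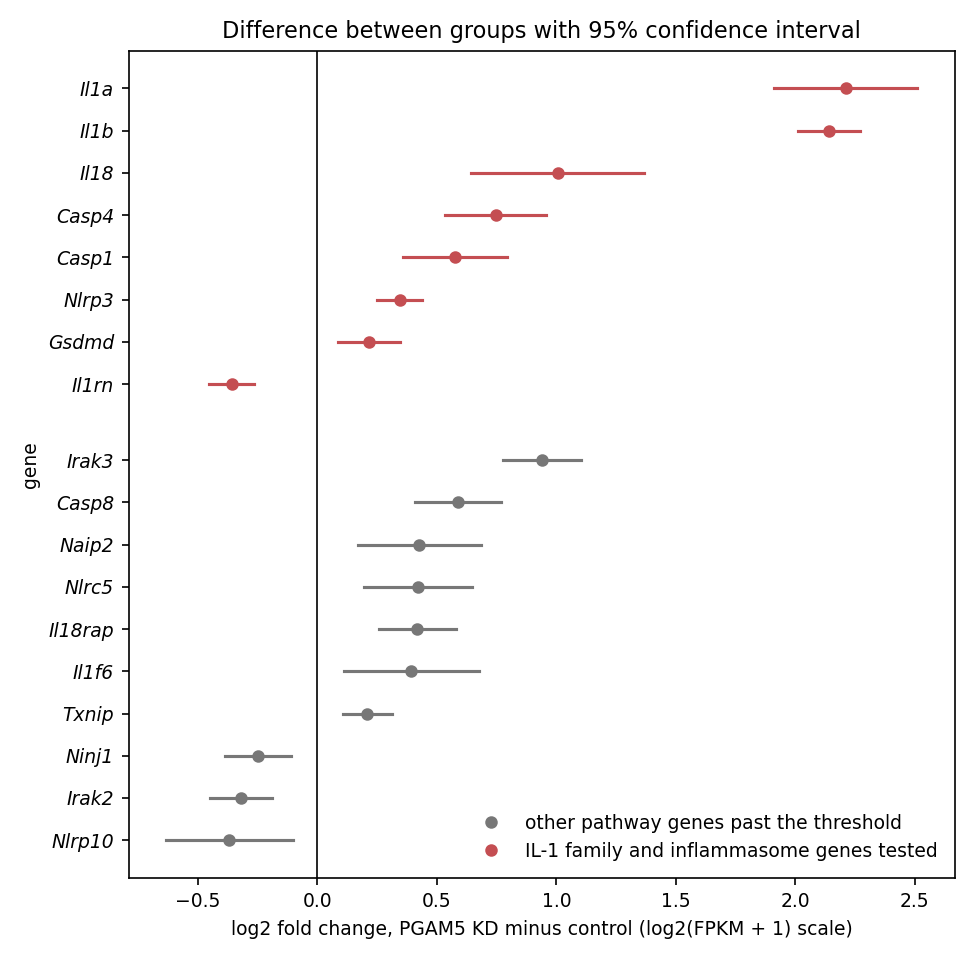
Log2 fold change of PGAM5 KD over control on the log2(FPKM + 1) scale, as points with 95% confidence intervals, for the 8 tested genes of the group (red) and the 10 other pathway genes that were called (gray). Il1a and Il1b, at 2.21 and 2.14, stand apart from all others, and the intervals of Il1rn, Irak2, Ninj1 and Nlrp10 lie below 0.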

How the data were processed

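RNA was measured in 6 libraries, grouped by the genotype in their labels. The authors deposited FPKM per Ensembl gene and library. The submitters' processing notes name HISAT2 2.0.5, featureCounts 1.5.0-p3 and mm10, while the annotation release, the strand setting and the treatment of fragments that fit several genes are not given in the sources used here. Total RNA was purified, poly(A) RNA was selected and the sequencing was done by a provider. FPKM removes depth and length but not differences in composition between libraries, and the FPKM of a library summed to 304393 to 304889 (control) or 317936 to 324298 (PGAM5 KD).

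Of 54532 genes 54495 were in GENCODE M21 (GRCm38), which gave names, coordinates and exon lengths. FPKM times exon length fell within 0.01 of a whole number of fragments for 96.8% to 97.1% of values under 1000 fragments, which gave depth and fragments. Genes with a mean of at least 1 FPKM over the libraries were tested on log2(FPKM + 1) with limma 3.58.1 in R 4.3.3 (mean-variance trend, two-sided, Benjamini-Hochberg over 10540 genes, threshold 0.05). The fit was tested on simulated data. Single values and within-library ratios were compared with an exact two-sided permutation test, with Benjamini-Hochberg adjustment over 5 ratios. The ratio of Nlrp3 to Pycard could not be computed, since Pycard was at 0 in some libraries. A search with blastn 2.17.0 (at least 85% identity over 200 bases) found only Gm14023 and Gm45205, which overlap Il1a and Pycard. The labels do not say whether replicates were separate cultures, so p-values measure the spread between these libraries, which may be technical.

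The members and the lists were chosen with earlier results of these data known. All members are named, with called genes of each pathway list (at most 4 in each direction), genes that overlap a member, markers at 0 and Pgam5, and other genes are marked as chosen after their values were seen. The alternatives were a pseudocount of 0.1, no filter, a mean of at least 5 FPKM, TPM, quantile normalization, median centring, no trend, array weights, voom on recovered fragments, a replicate block and leaving out each library. Python 3.11.15 (pandas 2.3.3, matplotlib 3.10.9) served for tables and plots.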

Additional observations from a re-analysis of the deposited data

How the results depend on the processing

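Of the 8 tested genes, Il1b, Il1rn, Il18, Nlrp3, Casp1 and Casp4 kept direction and call in all 16 alternatives and Il1a in the 15 that tested it. Gsdmd kept its direction in all 16 but its call in 10, losing it after TPM, with the block and without any of 4 libraries. The calls of genes of the group numbered 7 or 8 in every alternative. For all genes called above 1 in absolute log2 fold change the count was 139, against 261 with a pseudocount of 0.1, 76 with a mean of at least 5 FPKM, 233 after TPM and 278 with voom on fragments. The 10 calls among other pathway genes of 35 tested became 6 of 50 without the filter (2590 of 20816 genes), 6 without control replicate 1 (2532 of 10535) or control replicate 3 (2435 of 10525), 12 with no trend (3122 of 10540) or array weights (3480 of 10540), 14 with voom (3893 of 10535) and 15 after TPM (3370 of 10540), with the calls over all genes in parentheses. The cause of the other changes was not tested.

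When 1 library was left out in turn, calls of the group ranged from 7 to 8, those above 1 from 2 to 3, calls among all genes from 2342 to 2843, those above 1 from 135 to 156, and pathway calls from 6 to 9. The log2 difference of the ratio ranged from 2.64 to 2.74 for Il1b to Il1rn, 0.77 to 1.14 for Il1a to Il1b, 3.44 to 3.81 for Il1a to Il1rn, 2.08 to 2.89 for Il18 to Il18bp, and 0.22 to 0.36 for Casp4 to Casp1. With 1 FPKM added to each value, which pulls ratios of low genes toward 1, these differences were 2.50, 0.070, 2.57, 1.34 and 0.17 for the 5 pairs in that order. The higher level of Il1a relative to Il1b thus holds for the FPKM as deposited and nearly vanishes with that addition.

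The replicate numbers did not pair the libraries, since deviations of libraries with the same number correlated between -0.052 and 0.016, and not every library correlated best with its own number. With the replicate block 2652 genes, 7 of the 8 genes of the group and 7 pathway genes were called. Gsdmd, Naip2, Nlrp10 and Il36a were not called with it, with adjusted p of 0.0604, 0.0629, 0.0836 and 0.0903 in limma. Depth limits Pycard, Il18bp and Il1a in control, which rest on 3, 100 and 91 fragments summed over the 3 control libraries.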
